A study of Mus musculus with 36 samples.

Results

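Lung lavage macrophages of adult Scnn1b-Tg mice at postnatal day (PND) 42 were compared with those of Scnn1b-Tg pups at PND 3, to find how the inflammatory state of these cells differed between the early and the established stage of the disease within one genotype. The samples were chosen by their titles: all Tg arrays of PND 42 without germ-free housing (4 arrays) and all Tg arrays of PND 3 (4 arrays), 8 of the 36 arrays of the series, over the 23099 annotated features of the array. Both groups carried the Scnn1b transgene on the C57Bl/6N Tac background and were housed specific pathogen free (SPF), and they differed in age. The transgene encodes the beta chain of the channel for sodium uptake across epithelia (ENaC) and is driven by a promoter active in airway club cells and not in macrophages, and the mice are a model of a dehydrated, mucus-obstructed airway. Wild-type (WT) littermates of the same ages, housing and background (4 arrays each) were used where an age change had to be set against normal maturation, and Tg arrays of PND 10 in SPF housing (4) and of PND 42 in germ-free (GF) housing (3) were set beside the comparison. Each array of PND 3 or PND 10 held cells pooled from 3 pups and each array of PND 42 the cells of 1 mouse, so age and pooling cannot be told apart. Cells were depleted of granulocytes by negative selection against Ly-6G, and 12 ng of RNA per array was amplified. The paper's cell counts still list a small share of neutrophils or eosinophils in some Tg samples of both ages.

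Macrophages are commonly described along an axis between classical and alternative activation. Classical activation follows microbial products and interferon gamma, runs largely through NF-kB, and yields nitric oxide synthase, TNF, IL-1 family cytokines and chemokines that draw neutrophils. Alternative activation follows the type II cytokines of T helper cells and innate lymphoid cells, which signal through the shared IL-4 receptor alpha chain and STAT6, and yields arginase, resistin-like and chitinase-like proteins, the mannose receptor and chemokines for T cells and eosinophils. Alveolar macrophages in addition take up and degrade surfactant lipid, a function that matures after birth.

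Values are log2 intensities after robust multi-array averaging. A gene is said to have risen or fallen between PND 3 and PND 42 where limma's moderated test gave a Benjamini-Hochberg adjusted p of 0.05 or less, and "past both limits" adds a 2-fold change. The highest of the array medians was 4.055, and a group mean at or below it is called near background. A fold against such a mean is given as measured and can understate the difference.

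Arrays within a group were alike, with correlations of 0.9898 to 0.9916 among Tg PND 42 arrays and 0.9869 to 0.9912 among Tg PND 3 arrays. Scnn1b itself read 3.69, 3.59, 3.68 and 3.41 at PND 42, against 5.37, 6.03, 5.47 and 6.00 at PND 3 (log2 change -2.12 ± 0.59 SE, adjusted p = 0.0173), and this call was lost without Tg PND 3 replicate 2 (adjusted p = 0.0529). The adult Tg values lay near background and close to the adult WT mean of 3.41, so at PND 42 the transcript did not check the genotype label. Xist, transcribed from the inactive X chromosome of females, read 2.98 to 3.29 in the 4 adult mice, against 3.11, 7.48, 8.02 and 7.51 in the PND 3 pools, although the methods name male mice. Xist was thus high in 3 of the 4 PND 3 pools and in no adult mouse, and with the Xist level as a term in the fit the count past both limits was 756. The defining alveolar macrophage genes Siglecf, Itgax, Marco and Pparg were well above background in all 8 arrays. One array of a control group stood apart: WT PND 3 replicate 1 had high values of inflammatory genes, which touches every statement below on the WT change and on its difference from the Tg change.

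At PND 42, 759 annotated features stood past both limits relative to PND 3, 386 of them higher (1.67% of those tested) and 373 lower (1.61%). By adjusted p alone 1386 were higher (6.00%) and 1098 lower (4.75%). The 4 arrays of one age lay entirely above or below the 4 of the other for 376 of the 386 and for 350 of the 373, against 15.6% of all annotated features. These features were chosen by a test on the same arrays, so their separation follows largely from the choice and adds no support. The median change over all annotated features was -0.01 on the log2 scale. Largest among the falls were stefin A family protease inhibitors, acute-phase and antimicrobial proteins and classical activation genes, and among the rises eosinophil-associated ribonucleases, the chemokine genes Ccl17 and Ccl24, genes of lipid and carbohydrate metabolism and MHC class II.

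Of the 33 measured genes of the classical activation list, 17 fell, 1 rose and 15 did not pass, with a median log2 change of -0.93 beside the -0.01 of all features. Nos2, the inducible nitric oxide synthase, read 3.21, 3.27, 3.22 and 3.18 at PND 42, against 5.54, 7.78, 6.88 and 4.48 at PND 3. The adult values were at background in all 4 mice while the PND 3 pools spread over a wide range without reaching down to them (7.73-fold lower, log2 change -2.95 ± 0.43, adjusted p = 1.19e-05). Acod1, which makes itaconate, read 5.47, 3.99, 5.54 and 4.95, against 9.92, 10.53, 10.49 and 9.39 at PND 3 (34.2-fold lower, adjusted p = 5.2e-08). Ptgs2, the inducible cyclooxygenase, was at 4.31, 3.89, 3.59 and 3.96 in adults, against 7.91, 8.44, 7.44 and 6.67 in pups (12.8-fold lower, adjusted p = 2.62e-08). In both genes every adult value was below every PND 3 value.

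Cytokines fell as well, but not to background. Tnf read 6.96, 6.29, 5.76 and 7.05 at PND 42, against 8.98, 9.02, 9.23 and 8.80 at PND 3, a 5.63-fold fall (log2 change -2.49 ± 0.28, adjusted p = 1.24e-07). Il1b read 7.23, 6.55, 7.10 and 7.78, against 9.67, 10.12, 10.20 and 9.49 (6.53-fold lower, adjusted p = 3.03e-06). Both stayed well above the near-background limit in all adult mice. Il1a fell 2.1-fold (adjusted p = 0.0187) to an adult level that was still between 9.54 and 10.03, against 10.27 to 11.06 in pups. Saa3, an acute-phase serum amyloid A, had the largest fall of the list, with 3.00, 2.91, 3.70 and 2.86 at PND 42, against 9.77, 10.64, 11.37 and 9.26 at PND 3 (141-fold, adjusted p = 3.85e-09). Other falls included Trem1, an activating receptor that amplifies Toll-like receptor signals (4.86-fold, adjusted p = 8.48e-07), the interferon-inducible chemokine gene Cxcl10 (4.65-fold, adjusted p = 0.00443) and the cytokine signalling inhibitor Socs3 (2.25-fold, adjusted p = 0.00582).

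The list did not move as one. Il6 read 3.48, 4.05, 4.13 and 3.81 in adults, against 5.15, 5.64, 3.82 and 3.90 in pups. The 2 higher pools lay apart from the other two, which overlapped the adults, and the change did not pass (-0.76 ± 0.30, adjusted p = 0.124), although it did without Tg PND 3 replicate 3 (adjusted p = 0.0256) or replicate 4 (adjusted p = 0.0358). The costimulatory genes Cd80 (0.30, adjusted p = 0.632) and Cd86 (-0.86, adjusted p = 0.0747) did not pass either. Il12b, which encodes the shared subunit of IL-12 and IL-23, was the single gene of the list that rose, with 4.64, 3.95, 4.82 and 5.21 at PND 42, against 3.47, 3.90, 3.51 and 3.78 at PND 3 (1.99-fold, adjusted p = 9.99e-05). Its partner subunits moved the other way: Il12a fell 2.01-fold (adjusted p = 2.14e-05) and Il23a 1.3-fold between means near background (adjusted p = 0.018).

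**Figure D1:**
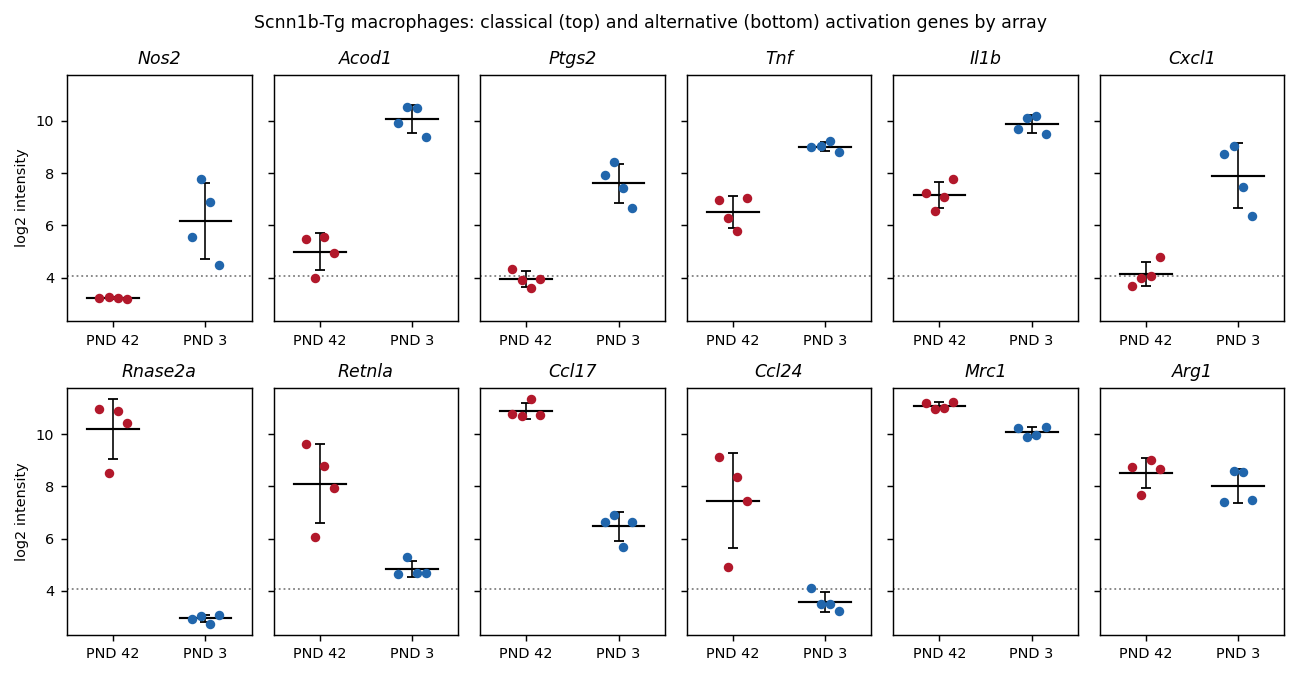
Log2 intensity (vertical axis) of 6 classical (top) and 6 alternative activation genes (bottom) in the 4 Tg PND 42 mice (red, left of each panel) and the 4 Tg PND 3 pools (blue, right), with the mean and SD as black lines and the highest array median of 4.055 dotted. Every top-row gene was lower in all adult mice than in all PND 3 pools, the first 5 bottom-row genes were higher in all adult mice, and Arg1 overlapped between the ages.

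Chemokines that attract neutrophils formed the group with the lowest median change, -2.22 over the 7 CXC genes measured, of which 4 fell and none rose. Cxcl1 read 3.69, 4.00, 4.05 and 4.79 in adults, against 8.74, 9.04, 7.46 and 6.36 in pups (13.6-fold lower, log2 change -3.77 ± 0.37, adjusted p = 1.8e-08). Cxcl2 read 7.06, 7.11, 7.41 and 7.77, against 11.11, 11.07, 11.19 and 10.35 (12.1-fold lower, adjusted p = 1.8e-08). Cxcl1 thus reached background in most adult mice, whereas Cxcl2 fell by a similar factor and remained expressed. Cxcl3 fell 8.47-fold (adjusted p = 5.38e-05) and Cxcl15, a lung epithelial chemokine, 4.66-fold to near background (adjusted p = 3.49e-05), while Cxcl5 was near background at both ages. Among the 15 CC chemokine genes 4 rose and 3 fell. The macrophage inflammatory protein genes Ccl4 (7.96-fold, adjusted p = 1e-07) and Ccl3 (2.27-fold, adjusted p = 0.00499) fell, as did Ccl9 (1.68-fold, adjusted p = 0.0373), whereas the monocyte chemoattractant genes did not pass: Ccl2 changed by -1.44 ± 0.49 (adjusted p = 0.0661) and Ccl7 by -0.15 (adjusted p = 0.93).

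Genes of NF-kB signalling and its feedback fell in 15 of 20 cases and rose in none (median -1.05). Nfkbia, the inhibitor that holds NF-kB in the cytoplasm and is itself induced by it, read 8.11, 8.17, 8.33 and 8.19 at PND 42, against 10.17, 10.06, 10.15 and 9.50 at PND 3 (3.41-fold lower, log2 change -1.77 ± 0.20, adjusted p = 2.64e-07). Nfkbiz, a nuclear cofactor for secondary NF-kB targets, read 4.31, 4.27, 4.28 and 4.74, against 6.86, 6.96, 7.02 and 5.94 (4.9-fold lower, adjusted p = 1.14e-09). In both genes Tg PND 3 replicate 4 was the lowest of the pools and still above every adult. The inhibitors Tnfaip3, Nfkbie, Tnip1 and Bcl3, the subunit genes Nfkb2 and Relb, and Sod2, a mitochondrial superoxide dismutase induced by NF-kB, each fell by factors between 2.05 and 2.36 with adjusted p between 8.25e-06 and 0.00129.

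The promoter windows of Cxcl1, Cxcl2 and Nfkbia are shown because these genes of the falling group hold the NF-kB consensus site in their window. They were taken from RefSeq on GRCm38.p6 and run from 250 bases before to 50 bases after the transcript start. Capitals mark the matched site, which begins at position -71 in Cxcl1, -97 in Cxcl2 and, on the opposite strand, -29 in Nfkbia. Cxcl1 lies at chr5:90890995-90891294 (plus strand), Cxcl2 at chr5:90903649-90903948 (plus strand) and Nfkbia at chr12:55492598-55492897 (minus strand).
Cxcl1: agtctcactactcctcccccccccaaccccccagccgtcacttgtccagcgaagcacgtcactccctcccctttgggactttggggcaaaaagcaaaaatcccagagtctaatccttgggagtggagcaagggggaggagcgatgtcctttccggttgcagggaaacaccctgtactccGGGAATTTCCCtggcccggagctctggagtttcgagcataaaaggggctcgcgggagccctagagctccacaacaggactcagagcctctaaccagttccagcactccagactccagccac
Cxcl2: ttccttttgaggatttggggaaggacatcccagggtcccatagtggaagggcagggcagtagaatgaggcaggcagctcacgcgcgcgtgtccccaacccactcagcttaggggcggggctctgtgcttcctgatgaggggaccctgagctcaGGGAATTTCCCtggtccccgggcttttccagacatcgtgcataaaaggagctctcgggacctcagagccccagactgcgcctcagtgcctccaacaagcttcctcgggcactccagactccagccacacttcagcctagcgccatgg
Nfkbia: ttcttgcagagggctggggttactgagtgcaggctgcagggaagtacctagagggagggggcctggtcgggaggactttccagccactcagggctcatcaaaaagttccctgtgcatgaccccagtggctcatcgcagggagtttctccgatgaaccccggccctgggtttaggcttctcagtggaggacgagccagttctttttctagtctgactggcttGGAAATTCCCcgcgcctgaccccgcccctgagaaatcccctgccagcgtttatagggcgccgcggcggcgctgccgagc
Searched on both strands, the consensus occurred in 4.505% of all 32851 windows and in 5.77% of the 14749 array genes that had a window. It occurred in 29 of the 248 genes past both limits downward that had a window (11.69%) and in 18 of the 274 upward (6.569%). A match is a description of the letters and does not show binding.

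The remaining large falls were in stefin family genes, antimicrobial and acute-phase proteins and other secreted proteins. Cstdc4, of the stefin A family, read 4.68, 4.91, 5.64 and 3.93 at PND 42, against 12.16, 12.65, 12.52 and 12.02 at PND 3 (187-fold lower, log2 change -7.55 ± 0.69, adjusted p = 3.89e-09). Its relatives Csta3 (183-fold), Stfa3 (75-fold) and Stfa1 (57.3-fold) fell to near background with it (adjusted p between 1.91e-09 and 1.53e-07), and because these genes are close copies of each other the array may not separate them. Lcn2, a siderophore-binding antimicrobial protein, read 3.71, 4.13, 3.78 and 4.03, against 10.58, 11.26, 11.65 and 10.07 (126-fold lower, adjusted p = 2.62e-08). The calprotectin genes S100a9 (53.2-fold, adjusted p = 6.7e-06) and S100a8 (6.3-fold, adjusted p = 3.13e-07) fell by unequal factors, and S100a8 still read 8.53 to 9.94 in adults. Hp, which encodes haptoglobin (42.2-fold, adjusted p = 1.58e-11), Thbs1, a matricellular thrombospondin (31.3-fold, adjusted p = 6.2e-08), Chil1, a chitinase-like protein (30.9-fold, adjusted p = 1.17e-08), and Il1f9, an epithelial and myeloid IL-1 family cytokine (21.7-fold, adjusted p = 3.87e-10), were also among the 12 largest falls.

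Markers of neutrophils were lower as a list. Of 28 markers measured 16 fell and 1 rose (median -1.58), and their mean level per array was 4.01 to 4.34 at PND 42, against 5.84 to 6.94 at PND 3. Among the defining markers S100a8, S100a9 and Csf3r fell (Csf3r 4.74-fold, adjusted p = 6.18e-07), while Cxcr2 read 7.27, 6.92, 6.48 and 6.53, against 6.89, 7.05, 8.13 and 7.02, and did not pass (adjusted p = 0.587). Tg PND 3 replicate 3 had the highest neutrophil level of 6.94 and the highest Saa3, which is not in this list. Lcn2, S100a8, S100a9, Stfa1, Stfa3 and Chil1 of the preceding paragraph are members of the list, so that their falls enter its count and level. The marker that rose was Mmp8, a neutrophil collagenase (4.96-fold, adjusted p = 4.51e-05), which also rose in WT mice (adjusted p = 0.012). In such bulk samples fewer cells of a type and less RNA per cell cannot be told apart, and the part of neutrophils left after the selection in the falls of this and the preceding gene groups was not tested.

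**Figure D2:**
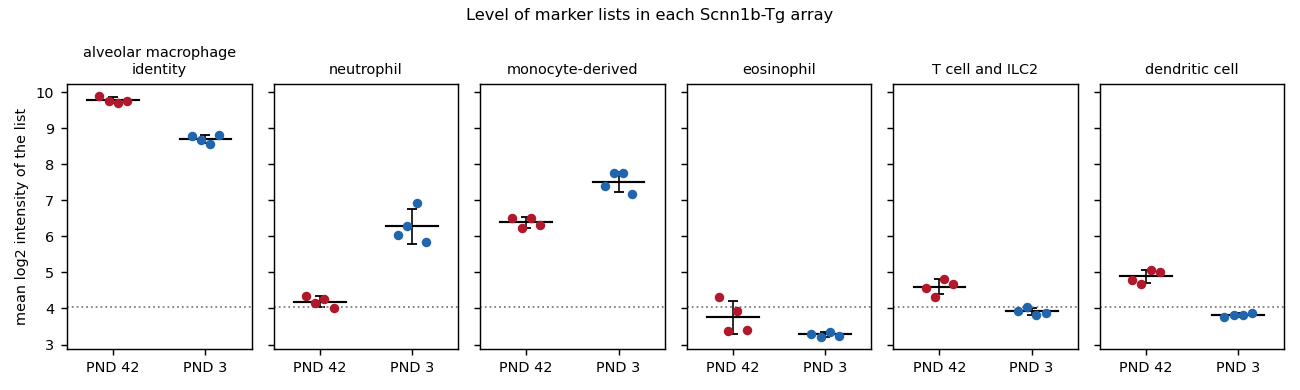
Mean log2 intensity of 6 marker lists (vertical axis) in each Tg PND 42 mouse (red, left) and each Tg PND 3 pool (blue, right), with group mean and SD as black lines and the highest array median of 4.055 dotted. The alveolar macrophage, T cell and dendritic lists were higher and the neutrophil and monocyte lists lower in all adult mice than in all PND 3 pools. The eosinophil list was also higher in all adult mice (3.38 to 4.33, against 3.22 to 3.36), but in mouse 2 and mouse 4 only slightly.

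In the alternative activation list 15 of 32 measured genes rose, 3 fell and 14 did not pass (median 0.67). Rnase2a, an eosinophil-associated ribonuclease, had the largest rise of all named genes, with 10.98, 8.52, 10.87 and 10.43 at PND 42, against 2.94, 3.03, 2.75 and 3.07 at PND 3 (152-fold, log2 change 7.25 ± 0.84, adjusted p = 3.13e-07). Rnase2b of the same family, which is similar enough in sequence that probes may be shared, read 8.27 to 9.26 in adults, against 4.09 to 4.69 in pups (22.4-fold, adjusted p = 7.52e-10). Ccl17, a ligand of the T cell chemokine receptor Ccr4, read 10.76, 10.70, 11.33 and 10.72, against 6.63, 6.91, 5.68 and 6.64 (21.3-fold, adjusted p = 7.97e-06), and Ccl22, the other ligand of that receptor, rose 4.19-fold (adjusted p = 1.43e-08). The adult values of Ccl17 lay within a narrow range except mouse 3, which was higher, and all pools were well below them.

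Other genes of the list were far more variable from mouse to mouse. Retnla, a secreted resistin-like protein, read 9.61, 6.08, 8.76 and 7.94 in adults, against 4.66, 5.28, 4.69 and 4.67 in pups (9.67-fold, log2 change 3.27 ± 0.73, adjusted p = 0.00244). Ccl24, an eosinophil chemoattractant, read 9.11, 4.92, 8.35 and 7.42, against 4.11, 3.50, 3.48 and 3.22 (14.7-fold, adjusted p = 0.001). Alox15, a lipoxygenase induced by IL-4, read 7.77, 4.75, 6.53 and 5.47, against 3.46 to 3.59 (6.05-fold, adjusted p = 0.0034). In all of these, and in Rnase2a, mouse 2 was the lowest of the adults, mouse 1 the highest, and no adult value reached down to the pups. Irf4, a transcription factor of alternative activation, did not follow mouse 2 and read 5.55 to 5.78 in the 4 adults, against 3.47 to 4.09 (3.97-fold, adjusted p = 0.00049).

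Chitinase-like and mannose receptor genes, already strongly expressed in pups, rose by small factors with little spread. Chil3, the chitinase-like protein Ym1, read 12.52, 12.34, 12.29 and 12.36, against 11.37, 11.07, 11.03 and 10.95 (2.42-fold, adjusted p = 4.17e-05), and its close copy Chil4 rose 2.27-fold (adjusted p = 0.000207). Mrc1, the mannose receptor, read 10.97 to 11.22, against 9.88 to 10.26 (2.02-fold, adjusted p = 1.65e-08). Ch25h, which makes an antiviral oxysterol, started lower in pups and rose by a larger factor, at 10.63 to 10.86, against 6.39 to 7.74 (12.7-fold, adjusted p = 3.36e-10). Cd36, a scavenger receptor, rose 1.66-fold (adjusted p = 0.000238), Mgl2, a galactose-type lectin, 2.38-fold (adjusted p = 0.00762) and Tgm2, a transglutaminase, 1.77-fold (adjusted p = 0.0259).

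Several genes usually counted with alternative activation did not change or went the other way. Arg1, which encodes arginase, read 8.72, 7.68, 8.99 and 8.66 at PND 42, against 7.41, 8.61, 8.54 and 7.49 at PND 3. Its ages overlapped (0.50 ± 0.64, adjusted p = 0.799), with a WT mean of 3.66 at PND 42 and of 5.03 at PND 3. Mmp12, the macrophage elastase, was high at both ages as well, at 9.95 to 10.48, against 8.88 to 10.02 (0.68 ± 0.38, adjusted p = 0.373). Il10, an anti-inflammatory cytokine gene, fell to near background at 3.01 to 3.32, against 4.42, 4.99, 5.36 and 3.30 (2.65-fold, adjusted p = 0.000179), and the lowest pool overlapped the adults. F13a1, a transglutaminase of clotting (4.79-fold, adjusted p = 4.6e-06), and Stab1, a scavenger receptor (2.73-fold, adjusted p = 1.53e-07), also fell to near background.

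In the receptor pathway upstream, Il4ra and Stat6 did not pass at the transcript level, while other members rose. In the list of IL-4 and IL-13 signalling 2 of 12 genes rose (16.67%, beside 6.00% of all annotated features) and none fell. At an unadjusted p of 0.05 by limma 5 of the 12 rose and none fell. The mean level of the list was higher in every adult mouse than in every PND 3 pool, and the genes that rose enter that mean. Il13 read 7.29, 5.92, 4.97 and 5.70 in adults, against 3.74, 3.24, 3.58 and 3.27 in pups (5.7-fold, log2 change 2.51 ± 0.41, adjusted p = 6.11e-05), and Cish, a signalling inhibitor induced through STAT5, rose 2.97-fold (adjusted p = 6.69e-05). Il4ra, the shared receptor chain, read 8.34 to 8.59, against 8.16 to 8.79 (-0.02 ± 0.19, adjusted p = 0.98). Stat6 changed by 0.25 ± 0.12 (adjusted p = 0.252), Tgfb1 by 0.28 ± 0.14 (adjusted p = 0.309), and Il4, Il5 and Il33 were near background at both ages. In the list of T cell and innate lymphoid markers, cells known to make Il13, 8 of 17 rose, Il13 itself among them, and none fell (median 0.51). The mean level of this list was 4.58, 4.32, 4.82 and 4.69 in adults, against 3.83 to 4.05 in pups, and mouse 3, its highest adult, was the lowest for Il13. Cd3e read 4.93, 3.77, 5.24 and 5.06, against 2.96 to 3.73 (2.81-fold, adjusted p = 0.000141), lowest in mouse 2, while Cd3d stayed near background. The source of the Il13 signal was not tested.

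Of the eosinophil markers 0 of 6 passed by limma's adjusted p and 1 at an unadjusted p of 0.05, and their mean level was 3.38 to 4.33 at PND 42, against 3.22 to 3.36 at PND 3. Of the defining pair, Epx was near background in all 8 arrays, at 2.99 to 3.16, against 3.06 to 3.34. Prg2, the major basic protein, read 5.92, 3.83, 5.47 and 3.85, against 2.94 to 3.23 (1.71 ± 0.62, adjusted p = 0.0887), and mice 1 and 3, its highest, were also the highest for Retnla, Ccl24 and Alox15. What eosinophils added to the ribonuclease signal was not tested.

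The windows of Retnla (chr16:48842359-48842658, plus strand) and Ccl17 (chr8:94810203-94810502, plus strand) are given because they hold the palindrome TTCNNNNGAA that STAT6 binds, at -145 and -154 from the start, printed in capitals.
Retnla: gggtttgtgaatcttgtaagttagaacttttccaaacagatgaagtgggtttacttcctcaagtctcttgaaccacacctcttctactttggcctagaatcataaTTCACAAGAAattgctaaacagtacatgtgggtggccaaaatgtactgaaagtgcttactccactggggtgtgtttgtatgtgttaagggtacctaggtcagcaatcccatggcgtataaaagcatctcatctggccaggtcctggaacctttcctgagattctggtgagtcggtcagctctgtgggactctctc
Ccl17: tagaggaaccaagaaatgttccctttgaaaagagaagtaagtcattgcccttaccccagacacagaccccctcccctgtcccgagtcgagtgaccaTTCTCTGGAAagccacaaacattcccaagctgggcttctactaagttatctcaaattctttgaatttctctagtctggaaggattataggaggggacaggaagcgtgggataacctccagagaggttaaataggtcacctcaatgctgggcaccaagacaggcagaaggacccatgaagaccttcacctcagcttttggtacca
This motif was found, on both strands, in 6.953% of all windows, in 7.356% of array genes with a window, in 21 of 274 genes past both limits upward (7.664%) and in 18 of 248 downward (7.258%).

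Beyond activation genes, the largest rises were in metabolic and structural genes. Rbp4, the plasma carrier of retinol, read 8.77, 8.54, 9.53 and 9.63 at PND 42, against 3.31, 3.21, 3.38 and 3.82 at PND 3 (51.7-fold, log2 change 5.69 ± 0.39, adjusted p = 1.71e-11). Fbp1, the gluconeogenic fructose bisphosphatase, read 9.06, 6.74, 8.87 and 8.69, against 3.28 to 3.39 (31.8-fold, adjusted p = 4.92e-06), with mouse 2 again the lowest. Awat1, a wax alcohol acyltransferase (18.6-fold, adjusted p = 6.1e-07), Fabp1, a fatty acid binding protein (14.9-fold, adjusted p = 2.71e-08), Bex1 (14.7-fold, adjusted p = 4.98e-09), Ucp3, a mitochondrial uncoupling protein (14-fold, adjusted p = 2.1e-13), and Sorbs3, the adhesion adaptor vinexin (12.8-fold, adjusted p = 2.24e-10), completed this group with H2-Ab1. Unlike Fbp1, none of these 5 had mouse 2 as its lowest adult, and each separated the ages in all 8 arrays.

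Transcripts of sterol and fatty acid synthesis rose broadly, with 17 of 24 genes higher, none lower and a median change of 0.76. Scd1, the stearoyl-CoA desaturase, read 9.02, 7.80, 8.21 and 8.18, against 5.05, 4.41, 4.64 and 4.96 (11.6-fold, adjusted p = 4.92e-06). The remaining rises were between 1.3-fold and 2.4-fold and covered successive steps of cholesterol synthesis, among them Hmgcs1 (1.53-fold), Idi1 (2.19-fold), Sqle (2.2-fold), Cyp51 (2.4-fold) and Dhcr7 (1.75-fold), along with fatty acid synthase Fasn (2.28-fold, adjusted p = 1.57e-06) and the regulators Srebf2 (1.3-fold, adjusted p = 0.031) and Insig1 (2.01-fold, adjusted p = 1.05e-05). In the list of lipid uptake, storage and efflux 7 rose and 4 fell of 19. Those that fell were the apolipoprotein genes Apoe, at 7.60 to 8.44, against 10.76 to 11.16 (7.85-fold, adjusted p = 2.46e-09), Apoc2 (9.73-fold, adjusted p = 2.29e-11) and Apoc1 (3.8-fold, adjusted p = 2.05e-06), and the cholesterol exporter Abca1 (5.83-fold, adjusted p = 2.03e-11), whereas Abcg1, the other main exporter, rose 1.37-fold (adjusted p = 0.0107).

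Hypoxia and glycolysis genes moved down, 16 of 29 falling and 1 rising (median -0.61). Vegfa read 3.86, 3.68, 3.78 and 3.57 in adults, against 6.37, 6.19, 6.53 and 6.01 in pups (5.86-fold lower, log2 change -2.55 ± 0.19, adjusted p = 7.51e-11). Other targets of the hypoxia-inducible factor fell with it: Hilpda, a lipid droplet protein (7.73-fold), Egln3, an oxygen-sensing prolyl hydroxylase (5.72-fold), and Bnip3, a mitophagy receptor (3.8-fold), with adjusted p between 1.86e-08 and 1.96e-05. The glucose transporter Slc2a1 (2.3-fold), the lactate transporter Slc16a3 (2.44-fold) and the enzymes Tpi1 (1.95-fold) and Pgam1 (1.74-fold) fell, Ldha (-0.32, adjusted p = 0.188) and Pkm (-0.28, adjusted p = 0.334) did not pass, and Pfkp was the gene that rose (1.45-fold, adjusted p = 0.0149). Hif1a itself fell 1.5-fold (adjusted p = 0.00456).

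**Figure D3:**
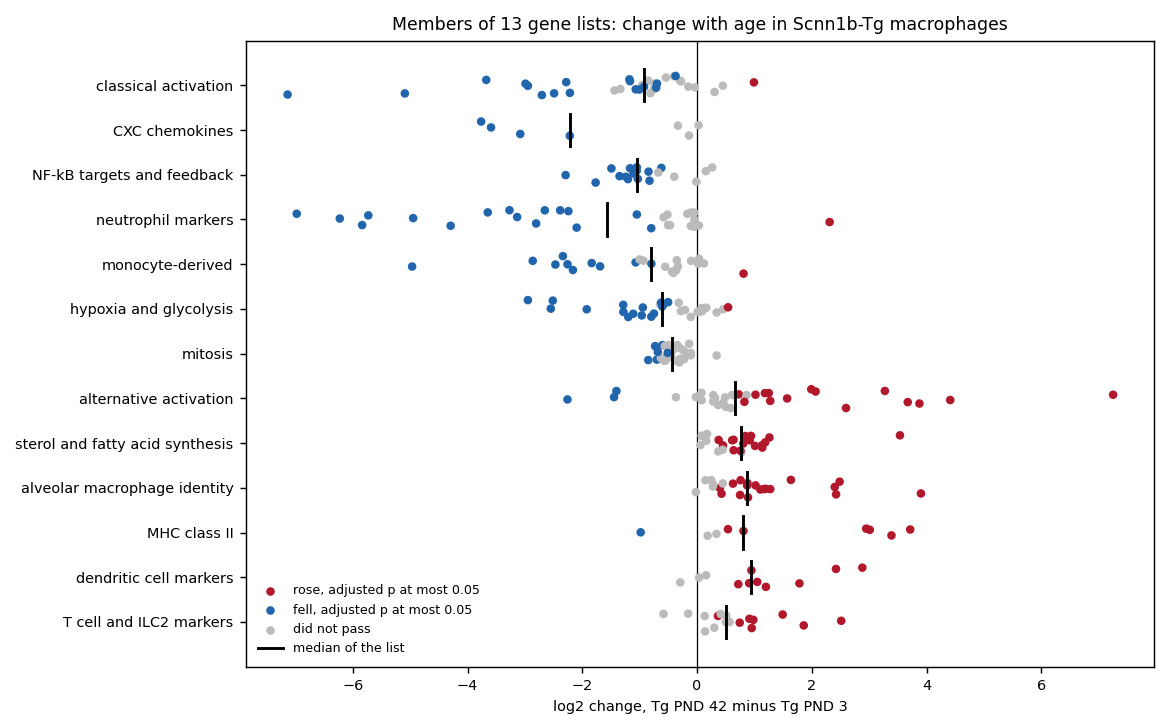
Log2 change between Tg PND 42 and Tg PND 3 (horizontal axis) of each measured member of 13 gene lists (rows); red members rose, blue members fell at an adjusted p of 0.05, grey members did not pass, and the black line is the median of the list. The classical, CXC, NF-kB, neutrophil and hypoxia lists had medians of -0.93, -2.22, -1.05, -1.58 and -0.61, and the alternative and sterol lists 0.67 and 0.76.

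Alveolar macrophage identity genes rose in 18 of 24 cases and fell in none (median 0.87), and their mean level was 9.69 to 9.89 in adults, against 8.57 to 8.82 in pups. Pparg, the nuclear receptor that specifies these cells, read 9.21, 9.28, 9.40 and 9.34, against 8.29, 8.26, 7.90 and 8.38 (2.15-fold, adjusted p = 1.79e-06). Siglecf, a lectin of alveolar macrophages and eosinophils (1.84-fold, adjusted p = 0.00305), Itgax, the integrin CD11c (1.83-fold, adjusted p = 0.000745), and Car4, a carbonic anhydrase (1.85-fold, adjusted p = 7.76e-08), rose by similar factors, and Cd2 (5.6-fold), Flt1 (5.36-fold) and Fabp4 (5.27-fold) by more. Of the 23 monocyte-derived macrophage genes 10 fell and 1, the efferocytosis receptor Mertk, rose (median -0.80). Itgam, the integrin CD11b, read 7.33 to 7.59, against 9.51 to 10.42 (5.54-fold lower, adjusted p = 8.85e-05), the matrix proteoglycan gene Vcan fell 5.06-fold to near background (adjusted p = 0.000169), and Cx3cr1, the fractalkine receptor, fell 3.58-fold to near background (adjusted p = 0.00138).

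Transcripts of MHC class II antigen presentation rose for 6 of 9 genes and fell for 1 (median 0.81). H2-Ab1 read 8.55, 9.01, 9.27 and 8.68 at PND 42, against 5.14, 6.09, 4.97 and 4.44 at PND 3 (13.1-fold, log2 change 3.71 ± 0.56, adjusted p = 2.12e-05). H2-Aa (10.5-fold), the invariant chain gene Cd74 (8.06-fold) and H2-Eb1 (7.71-fold) followed, with Tg PND 3 replicate 2 the highest pool for all of them, and H2-Oa, which restrains peptide loading, fell 1.98-fold (adjusted p = 0.0227), a call lost without replicate 1 or replicate 4 of either age. Dendritic cell markers moved with this group: 8 of 11 rose and none fell (median 0.95), at a mean level of 4.69 to 5.07 in adults, against 3.75 to 3.88 in pups. The rises included Fscn1 (7.36-fold, adjusted p = 1.52e-06), Ccr7 (3.44-fold, adjusted p = 1.68e-06) and the defining marker Flt3 (1.93-fold, adjusted p = 0.000188), whose PND 3 mean was near background, while Zbtb46 was near background at both ages. The part of dendritic cells in the class II change was not tested. Class I genes changed less, with 3 of 12 higher, among them the nonclassical H2-M2 (3.18-fold, adjusted p = 0.000161).

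Innate sensing was split. Of 15 genes of Toll-like receptor signalling 4 rose and 5 fell. Cd14, the lipopolysaccharide coreceptor, read 7.63, 7.92, 7.99 and 7.59 in adults, against 10.79, 10.87, 10.58 and 10.35 in pups (7.29-fold lower, log2 change -2.87 ± 0.15, adjusted p = 8.26e-14). Tlr2 (1.64-fold), Tlr9 (3.39-fold), Tlr1 (2.99-fold) and the signalling inhibitor Irak3 (4.34-fold) fell with adjusted p between 1.48e-07 and 0.000565, whereas Tlr3 (1.86-fold), Tlr4 (1.34-fold), Tlr5 (1.7-fold) and Tlr7 (1.46-fold) rose with adjusted p between 0.00655 and 0.0315. Of these rises 1 passed without Tg PND 42 replicate 1 and 2 without replicate 4. Cd14 and Tlr4, which act together, thus changed in opposite directions. Interferon-stimulated genes had 2 of 21 rising and 2 falling, and Tg PND 3 replicate 2 was higher than the other pools for the mean of this list (5.47, against 4.52 to 4.64 in the other pools). Without that pool 4 of the list rose and none fell.

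Among matrix proteases and their inhibitors 3 rose and 3 fell of 18. Mmp14, a membrane-bound collagenase, read 5.75, 4.73, 5.93 and 6.05, against 9.16, 9.69, 9.80 and 9.37 (14.8-fold lower, adjusted p = 4.56e-08), and Mmp9 fell 4.29-fold to near background (adjusted p = 4.8e-05) and Adam8 fell 2.54-fold (adjusted p = 0.0489), while Mmp8, Mmp13 (2.11-fold, adjusted p = 0.0184) and Mmp19 (1.87-fold, adjusted p = 0.00437) rose. Mitotic genes fell modestly, 6 of 26 with none rising (median -0.44). The proliferation marker Mki67 read 7.69 to 8.05, against 8.24 to 8.47 (1.43-fold lower, adjusted p = 0.0405). Prc1, with the largest change of this list, fell 1.81-fold (adjusted p = 0.00295), but a second feature of the gene with a mean of 2.74 did not pass (0.02, adjusted p = 0.934). DNA replication genes had 1 rise and 1 fall among 27. Single arrays decided much of this paragraph: the mitotic count was 2 without Tg PND 42 replicate 1, Tg PND 3 replicate 1 or Tg PND 3 replicate 2, 3 without Tg PND 3 replicate 4 and 10 without Tg PND 3 replicate 3. The Mki67 call was lost without any one of 7 of the 8 arrays, all but Tg PND 42 replicate 3, at adjusted p of up to 0.125, and the Adam8 call without any one of 6, all but replicate 3 at PND 42 and replicate 4 at PND 3, at up to 0.218.

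Epithelial and erythroid markers moved unevenly, in size and in direction, and fibroblast markers did not pass. Of 14 club and goblet cell genes 2 rose (Bpifa1 and Bpifb1, secreted defence proteins) and 3 fell (Muc5b, Reg3g and Scgb3a2). Scgb1a1, whose promoter drives the transgene, read 9.85, 8.74, 9.67 and 9.93 in adults, against 8.67, 8.41, 8.39 and 8.57 in pups (1.04 ± 0.43, adjusted p = 0.158), well above background at both ages, and the source of this signal was not tested. Of 10 alveolar type II genes 1 fell, Napsa (2.49-fold, adjusted p = 4.95e-05), while Sftpc did not pass (adjusted p = 0.61) and Lamp3 was near background. Of 11 fibroblast genes 0 passed by limma's adjusted p and 0 at an unadjusted p of 0.05, with Col1a1 and Dcn near background, and 2 of 8 erythroid genes fell, led by Alas2 at 4.65, 3.13, 5.95 and 3.29, against 7.24 to 8.25 (11.2-fold lower, adjusted p = 0.00644). Alas2 kept its call when any one of the 8 arrays was left out, and Slc4a1, the red cell anion exchanger, lost it each time (adjusted p between 0.0514 and 0.111). Without Tg PND 3 replicate 1 the club and goblet falls were 1.

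To separate these changes from normal maturation, the same ages were compared in WT littermates, a comparison that shares no array with the Tg one. In WT mice 389 features stood past both limits (1.68% of those tested), 177 higher and 212 lower. By adjusted p alone 504 were higher (2.18%) and 491 lower (2.13%). Of the 373 features past both limits downward in Tg mice, 115 (30.83%) were also past them downward in WT mice, which was 54.25% of the WT falls. Of the 386 upward in Tg mice 114 (29.53%) were upward in WT mice, or 64.41% of the WT rises, and 6 were downward. The difference between the genotypes was tested as the interaction of age and genotype, the Tg change minus the WT change. It stood past both limits in 131 features with a positive sign (0.567%) and in 115 with a negative one (0.498%), and by adjusted p alone in 199 (0.862%) and 143 (0.619%). Without WT PND 3 replicate 1 the WT count was 322 and the interaction count 290, against 246 with it.

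Some of the change was shared by both genotypes. Ucp3 rose in WT mice by 3.86 on the log2 scale, with an interaction of -0.05 (adjusted p = 1). H2-Ab1, with a Tg change of 3.71, changed by 3.95 in WT mice, and for the interaction 0 of the 9 class II genes passed by limma's adjusted p and 0 at an unadjusted p of 0.05. Apoe changed by -2.97 in Tg and by -3.06 in WT mice, and Itgam by -2.47 in Tg and by -3.41 in WT mice. S100a8 fell by 2.66 in Tg and by 3.23 in WT mice, both on the log2 scale, and Chil3 rose in both, by 1.27 in Tg and by 1.70 in WT mice. Of the 26 mitotic genes 14 fell in WT mice (median -0.65) and 6 in Tg mice (median -0.44), and the interaction passed the adjusted p in none. Of the 24 alveolar macrophage identity genes 9 rose in WT mice (median 0.36) and 18 in Tg mice (median 0.87), and none fell in either. Their interaction passed the adjusted p with a positive sign in 3 and a negative sign in 1. For Tnf the Tg change was -2.49 and the WT change -1.27 (adjusted p = 0.0046). The interaction did not pass for Tnf (-1.22, adjusted p = 0.17) or for Il1b (adjusted p = 0.75), which does not show that the changes were equal.

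Other changes differed between the genotypes. Rnase2a did not pass in WT mice (-0.17, adjusted p = 0.99), and its interaction was 7.42 (adjusted p = 0.00042). This contrast leaves out PND 10, where the ribonuclease list had a mean level of 5.28 to 7.22 in WT and 5.10 to 6.86 in Tg pools. Rbp4 (5.55, adjusted p = 3.5e-07), Awat1 (4.97, adjusted p = 0.00013), Fbp1 (4.92, adjusted p = 0.0048) and Bex1 (4.34, adjusted p = 4e-06) had positive interactions and WT changes that did not pass. Fstl1, a secreted glycoprotein, rose by 1.52 in Tg mice and fell by 2.93 in WT mice on the log2 scale (interaction 4.45, adjusted p = 2.1e-06). Negative interactions were found for Lcn2 (-5.07, adjusted p = 0.0046), Csta3 (-5.03, adjusted p = 0.0035), Saa3 (-4.60, adjusted p = 0.0051), Cxcl1 (-3.44, adjusted p = 0.00022) and Vegfa (-2.29, adjusted p = 4e-06). Cd14 changed by -0.01 in WT mice (adjusted p = 1, interaction -2.86, adjusted p = 1.5e-09). By list and adjusted p, the interaction was negative in 8 of 33 classical activation genes and positive in none. It was positive in 6 and negative in 2 of 32 alternative activation genes. In 10 of 28 neutrophil markers and 5 of 20 NF-kB genes it was negative, with none positive. The hypoxia and glycolysis list had 6 of 29 negative and none positive, and the sterol and fatty acid synthesis list 1 of 24 positive and none negative. Over all annotated features 0.862% were positive and 0.619% negative. For Ccl17 (3.00, adjusted p = 0.11), Retnla (3.43, adjusted p = 0.12), Ccl24 (3.94, adjusted p = 0.085) and Alox15 (2.88, adjusted p = 0.1) the interaction did not pass.

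**Figure D4:**
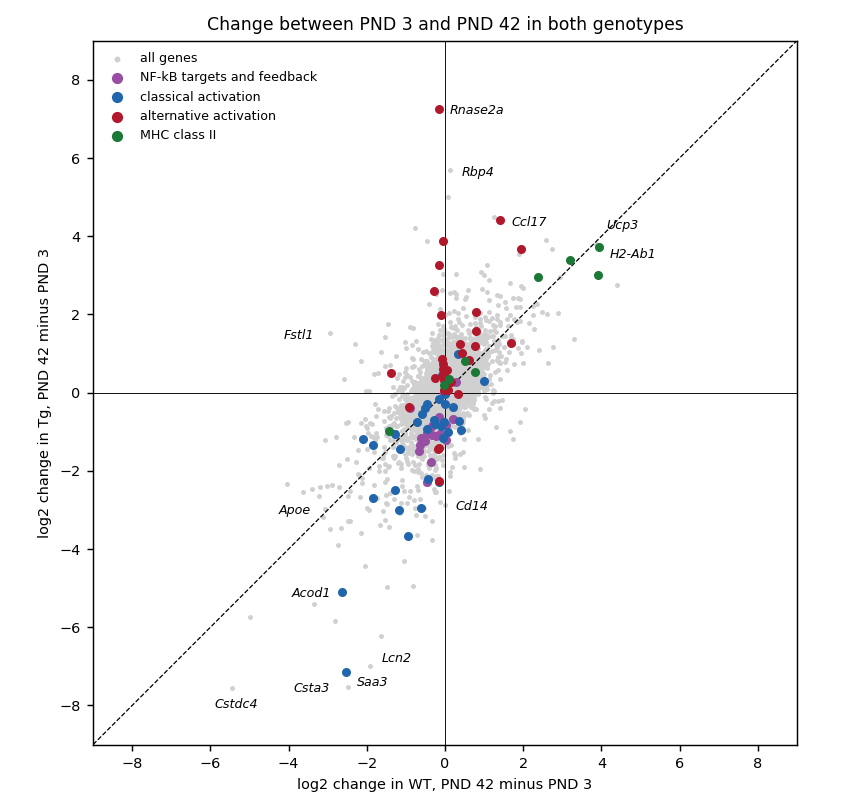
Log2 change between PND 42 and PND 3 in Tg mice (vertical axis) and in WT littermates (horizontal axis), 1 point per gene, with members of 4 lists in colour and the line of equal change dashed. MHC class II genes and Apoe lie near the line, Rnase2a (7.25 in Tg and -0.17 in WT) and Rbp4 (5.69 in Tg and 0.14 in WT) rose in Tg mice and did not pass in WT mice, and Cd14 (-2.87 in Tg and -0.01 in WT) lies below the line.

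At PND 10 the Tg course was uneven across genes. In the genes past both limits downward, the median share of the PND 3 to PND 42 change already seen at PND 10 was 54.39%, and in those upward 32.15%. These are descriptions with no test, since the PND 3 and PND 42 values chose the genes. Nos2 averaged 6.17 at PND 3, 3.34 at PND 10 and 3.22 at PND 42, so that its fall was complete at the middle age, whereas Tnf averaged 9.01, 8.60 and 6.52 and fell mostly after it. Rbp4 averaged 3.43, 3.58 and 9.12 and Bex1 4.11, 4.30 and 7.98, both still at the early level at PND 10. Rnase2a (2.95, 6.38 and 10.20) and Ccl17 (6.46, 8.78 and 10.88) lay in between on average, with a wide spread among the PND 10 pools of both genotypes. The alternative activation list stood at 6.45 to 7.52 in WT and 6.30 to 7.29 in Tg pools of PND 10, against 7.07 to 7.67 in Tg adults.

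**Figure D5:**
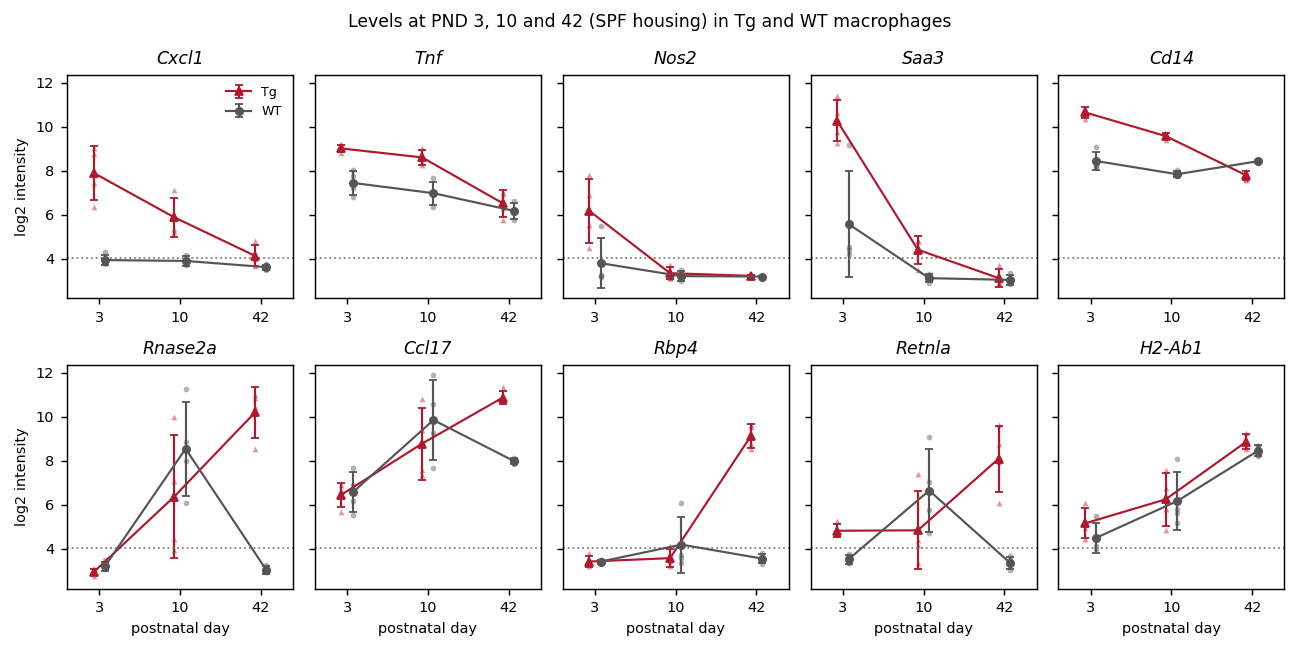
Log2 intensity (vertical axis) at PND 3, 10 and 42 (horizontal axis, not to scale in time) in Tg (red triangles) and WT (grey circles) macrophages from SPF housing, with every array, the mean and the SD; the highest array median of 4.055 is dotted. In Tg mice Nos2 averaged 6.17, 3.34 and 3.22 and Rbp4 3.43, 3.58 and 9.12, while WT Rnase2a averaged 3.21 at PND 3 and 3.04 at PND 42 with higher values between.

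Tg mice raised germ free, at the same adult age, are set beside these values without a test. Germ-free Tg mice averaged 3.22 for Nos2, 4.09 for Cxcl1 and 3.21 for Saa3, close to the SPF adult means of 3.22, 4.13 and 3.12, each a low level. The mean levels of the 4 gene lists given next were higher in every germ-free Tg mouse than in every SPF Tg adult. Other lists separated in the same way, among them CC chemokines, matrix proteases and interferon-stimulated genes. The monocyte-derived, B cell and alveolar type II markers did so too, so the separation was not particular to activation genes. The sterol and fatty acid synthesis list was lower in every germ-free Tg mouse. The mean level of the classical activation list was 6.05 to 6.16 in germ-free and 5.61 to 5.94 in SPF adults, that of the neutrophil CXC chemokines 5.13 to 5.75 in germ-free and 4.53 to 5.06 in SPF adults, and that of the neutrophil markers 4.39 to 4.89 in germ-free and 4.01 to 4.34 in SPF adults. The alternative activation list stood at 7.93 to 8.28 in germ-free and 7.07 to 7.67 in SPF adults. Germ-free Tg mice also averaged 11.68 for Rnase2a, 10.10 for Retnla, 10.24 for Ccl24 and 11.73 for Ccl17, against 10.20, 8.10, 7.45 and 10.88 in SPF adults and 2.95, 4.82, 3.58 and 6.46 in SPF pups at PND 3.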

How the data were processed

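RNA of lavage macrophages was hybridised to Affymetrix mouse gene arrays, 36 arrays in 10 groups. The values are log2 intensities that the authors deposited after robust multi-array averaging, with probe background adjusted for GC content and sequence, quantile normalization and median polish. The submitters' processing notes name Partek 6.5. Quantile normalization brings the arrays towards a common distribution, although the array medians of the features analysed still ranged over 3.723 to 4.055, and differences near background can be compressed, and the number of arrays limits the precision.

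Of 35556 features 28940 were analysed and 6616 presumed controls left out. Platform annotation gave genes to 23099 features, of which 21218 had a single symbol, over 18820 genes. Where several features shared a symbol, the one of highest mean over all arrays stood for the gene. Groups came from the sample titles. All arrays were fitted together with limma 3.58.1 in R 4.3.3, 1 coefficient per group, with moderated tests and Benjamini-Hochberg adjustment over all analysed features, and calls were made at an adjusted p of 0.05, with or without a 2-fold limit. The procedure was tested on simulated data with independent noise and known changes. Those data held no outlying arrays and no shifts in cell mix, so the test does not bear on either. A two-sided exact permutation test of 4 against 4 arrays has 70 splits and reaches p = 0.02857 at its smallest, which any gene whose ages do not overlap attains. Separate PND 3 pools and PND 42 mice were the replicates.

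The comparison and 32 gene lists (20 of processes, 11 of cell types and 1 of sex-linked genes, 505 genes measured) were chosen with earlier results of these data known. The rule for named genes took the 12 largest rises and 12 largest falls past both limits, up to 4 members of each list with the largest change past the adjusted p, the 6 largest interactions of each sign and a further set of activation, identity and control genes whatever their values, 122 genes in all. Predicted, clone and RIKEN names were left out. Other list members named in the text were chosen after their values were seen. Promoter windows are those of RefSeq on GRCm38.p6. Alternatives covered the arrays in the fit, normalization, variance model, features tested, limits, Xist as a term, the replicate number as a block, and the removal of single arrays. Arrays of PND 0 entered the fit and the germ-free WT arrays too, and are not described here.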

Additional observations from a re-analysis of the deposited data

Results flagged for a closer look

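In some genes 1 array stood far from the other 3 of its age. Of the 122 named genes this happened for 6 among the Tg PND 42 mice and for 8 among the Tg PND 3 pools, and chance alone marks about 1 gene in 20. Among adults, Ccl17 (11.33), H2-Eb1 (8.0) and Saa3 (3.70) were high in mouse 3, Stfa1 was high (3.10) and Fbp1 low (6.74) in mouse 2, and Nfkbiz was high in mouse 4 (4.74). Among PND 3 pools, replicate 4 was low for Cxcl2 (10.35), Nfkbia (9.50) and Nfkbiz (5.94) and high for Fabp1 (7.52). Abca1 was high in replicate 3 (9.04), Retnla in replicate 2 (5.28) and Bpifa1 in replicate 1 (3.77), and Xist was low in replicate 1 (3.11). Nfkbiz stood apart at both ages, with every pool still above every adult.

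The age change of 39 named genes differed between the genotypes by the interaction test of limma. The value given is the Tg change minus the WT change on the log2 scale, and WT PND 3 replicate 1, which had high inflammatory values, enters each of them. Among inflammatory and neutrophil-associated genes the value was -5.07 for Lcn2, -5.03 for Csta3, -4.60 for Saa3, -4.59 for Stfa3, -4.13 for Chil1, -3.44 for Cxcl1, -2.73 for Ptgs2, -2.40 for Il1f9, -2.34 for Nos2, -2.04 for Hp, -1.99 for Cxcl15 and -1.80 for Ccl4. For receptors and regulators of innate signalling it was -2.86 for Cd14, -1.83 for Nfkbiz, -1.64 for Irak3 and -1.42 for Nfkbia. Hypoxia and vascular genes had -3.49 for Thbs1, -2.42 for Hilpda, -2.29 for Vegfa and -1.70 for Bnip3, and the cholesterol exporter Abca1 had -2.31.

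Positive values were found among members of the alternative activation list, with 7.42 for Rnase2a, 1.73 for Ch25h, 1.28 for Ccl22 and 0.57 for Mrc1. Outside that list the value was 3.22 for Rnase2b and 2.22 for Mmp12. Mmp12 did not pass in Tg mice alone. Metabolic and other genes had 5.55 for Rbp4, 4.97 for Awat1, 4.92 for Fbp1, 4.45 for Fstl1, 4.34 for Bex1, 2.56 for H2-M2, 1.88 for Fabp4 and 0.84 for Pparg. Genes of lymphoid or airway cells had 2.73 for Il13, 0.87 for Icos, 2.66 for Scgb1a1 and 1.86 for Reg3g. The adjusted p of these 39 values lay between 1.55e-09 (Cd14) and 0.0486 (Nos2).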

How the results depend on the processing

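Of the 114 named genes past the adjusted p, 96 passed under every alternative run for them, 18 lost the call under at least 1 and none changed direction. Those 18 were B2m, Clec9a, Tppp3, Dynlrb2, Adam8, Rsad2, Slc4a1, Mki67, Ndc80, Birc5, Ctsl, Ier3, Chaf1a, Plk1, Reg3g, Thy1, Oas2 and Scnn1b. Scgb1a1, Xist and Il6 did not pass and did so under an alternative. Il4ra, with a change of -0.02 and no call, turned sign with array weights (0.022) and with the Xist level as a term (0.16), and lay between -0.1335 and 0.0748 when single arrays were left out. The count of 759 past both limits was 2484 by adjusted p alone and 181 at an adjusted p of 0.01 and 4-fold, and the WT count of 389 was 995 by adjusted p alone. With single arrays left out the counts were 690 to 802 in Tg mice, 322 to 378 in WT mice and 195 to 290 for the interaction, which was 246 with all arrays and 347 with array weights. Without both Tg PND 42 replicate 2 and WT PND 3 replicate 1, chosen after seeing the data, they were 760, 318 and 264. With the replicate number as a block they were 754, 383 and 241. Arrays of the same number did not deviate together (correlations -0.0755 to 0.0136, and no array matched its own number best), so the numbers name samples and do not pair them. The cause of these movements was not tested. Genes whose mean at one age was near background (125 of the falls at PND 42 and 108 of the rises at PND 3) have folds limited by the dimmer age.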

Other observations

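Lysosomal genes, which carry the degradative function of these cells, moved little: 2 of 26 rose and none fell, with a median log2 change of 0.11. Atp6v0d2, a subunit of the proton pump, rose 1.32-fold (adjusted p = 0.000363 by limma), and Ctsl, a cathepsin, 1.37-fold (adjusted p = 0.0353), a call that was lost without any one of 7 of the 8 arrays (all but Tg PND 3 replicate 2). Without the arrays of PND 0 in the fit 6 lysosomal genes rose. Of 13 antioxidant genes of the Nrf2 pathway 2 fell and none rose. Slc7a11, the cystine importer, fell 3.08-fold (adjusted p = 0.000267) and Srxn1, a sulfiredoxin, 1.59-fold (adjusted p = 0.00473). Among interferon-stimulated genes the signalling factor Stat2 rose 2.3-fold (adjusted p = 8.05e-05) and the RNA sensor Ifih1 1.69-fold (adjusted p = 0.000532), while Rsad2 (4.2-fold, adjusted p = 0.0358) and Oas2 (1.73-fold, adjusted p = 0.0153) fell, and both of these falls were lost without Tg PND 3 replicate 2 (adjusted p = 0.145 for Rsad2 and 0.0709 for Oas2). Of the 4 eosinophil-associated ribonuclease genes measured, Rnase2a and Rnase2b rose and the other 2 did not pass. Markers of further cell types stayed low. Of 9 B cell markers 1 rose, the inhibitory receptor gene Cd22 (1.56-fold, adjusted p = 0.00612), and Cd79a of the B cell receptor did not pass (-0.42, adjusted p = 0.648). Of 9 ciliated cell markers Tppp3 rose (2.49-fold, adjusted p = 0.037) and Dynlrb2 fell (1.48-fold, adjusted p = 0.0406), both calls being lost when single arrays were left out (adjusted p up to 0.191 for Tppp3 and 0.141 for Dynlrb2). Of 4 sex-linked genes 0 passed by limma's adjusted p and 1 at an unadjusted p of 0.05.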
